A study of Mus musculus with 8 samples.

Results

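The loci of the MYC family (Myc, Mycn, Mycl), the D-type cyclins (Ccnd1, Ccnd2, Ccnd3) and their kinases (Cdk4, Cdk6) were examined in 4 mouse breast tumors profiled by H3K27Ac chromatin immunoprecipitation sequencing. These 8 genes were taken by name from the 21938 protein-coding genes of the GENCODE M21 annotation. Each locus was the gene body plus 200 kb on either side on the mm10 genome. The comparison was between control tumors from PyMT;Rag1KO mice and test tumors from K14-TSLPtg;PyMT;Rag1KO mice, with 2 tumors in each group. All mice were Balb/c, lacked Rag1 and therefore their own T and B cells, carried the MMTV-driven PyMT oncogene and had wild-type CD4+ T cells transferred when 4 weeks old. Breast tumors were taken at terminal size. The groups differed in the TSLP transgene, which the K14 promoter drives in keratin 14-expressing epithelium. The sample titles call the control samples tumors and the test samples cysts, while the tissue label is the same for both groups. Each tumor came from a separate mouse and was analysed as a whole tissue piece, so that fewer cells of a type and less of the mark per cell cannot be told apart.

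MYC proteins are basic helix-loop-helix transcription factors that bind E-box DNA as dimers with MAX and drive growth and proliferation genes. D-type cyclins bind CDK4 and CDK6, and the active kinases phosphorylate RB proteins, which releases E2F factors and lets cells pass from G1 into S phase. Myc and Ccnd1 are known for their roles in mammary tumors. H3K27Ac marks active promoters and enhancers. The data were lists of peak intervals with no height, so the values below give where the mark was called and over how much sequence, not how strong it was.

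The lists held 69861 and 67850 intervals in control tumors 1 and 2, and 65763 and 59762 intervals in test tumors 1 and 2. They covered 73.1, 67.8, 73.0 and 64.3 Mb of the genome, so test tumor 2 had both the shortest list and the least covered sequence. Of the 10 luminal epithelial markers, 9 had peaks within 10 kb of the transcription start site (TSS), and their summed coverage was 373 and 346 percentage points in control tumors against 354 and 343 in test tumors. Of these, Cldn4 was higher in both control tumors, Epcam was higher in both test tumors, and the other 7 overlapped. Foxa1, a luminal factor, had no peak in any tumor. With 2 tumors against 2, an exact permutation test (two-sided) cannot give a p below 0.333, and a group difference is therefore described below by whether the groups overlap.

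Peaks in the 8 loci covered 212 and 220 kb of 3543 kb in control tumors 1 and 2, and 207 and 170 kb in test tumors 1 and 2. Both control tumors were above both test tumors, although control tumor 1 and test tumor 1 lay close together. The control mean was 216 ± 5.31 kb and the test mean 188 ± 25.6 kb (SD, n = 2 each; exact permutation p = 0.333, two-sided). The difference of -27.5 kb was -9.41 kb without test tumor 2 and -45.6 kb without test tumor 1. The groups overlapped with flanks of 100 kb (-9.75 kb), with flanks of 50 kb (-4.99 kb) and with peaks of at least 1 kb (-15.5 kb). Most of it lay in the Myc and Ccnd2 loci. Without Myc, the covered length was 172, 183, 180 and 150 kb in the same order of tumors, and the groups overlapped. Without Myc and Ccnd2, it was 167 and 167 kb in control tumors against 177 and 148 kb in test tumors. Relative to the covered genome, peaks in the 8 loci made up 2.90 and 3.24 kb per covered Mb in control tumors and 2.83 and 2.65 kb in test tumors.

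Myc and Ccnd2 were the members whose locus coverage was higher in both control tumors than in both test tumors, 2 of 8, against 12.4% of the 20654 protein-coding loci with a peak. None of the 8 was higher in both test tumors, against 15.9% of all such loci. The other 6 overlapped between groups. The median difference in locus coverage, test minus control, was -0.41 percentage points over the 8 members and -0.01 over all loci. Loci of neighbouring genes share sequence, and those shares describe these 4 tumors.

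**Figure D1:**
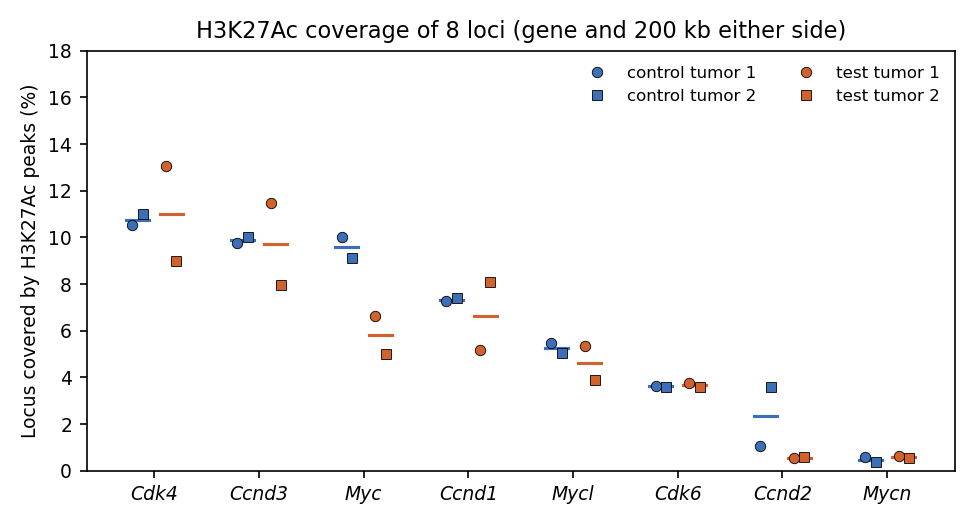
Share of each locus (gene and 200 kb either side) covered by H3K27Ac peaks, in percent, for 8 genes ordered by their mean over 4 tumors; points are tumors and bars are group means (n = 2). The control and test points are apart for Myc and Ccnd2 and overlap for the other 6 genes.

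Myc, the family member used by most dividing cells, lies on the plus strand at chr15:61985391-61990374. Its locus was covered by 10.0 and 9.13% in control tumors 1 and 2, and by 6.64 and 5.00% in test tumors 1 and 2. The means were 9.59 ± 0.639% and 5.82 ± 1.16% (SD, n = 2 each), a ratio of 0.607, and the groups did not overlap. Without test tumor 2, the difference was -2.94 percentage points instead of -3.77. It was -0.98 points with flanks of 50 kb and -2.46 points with peaks of at least 1 kb, and the groups did not overlap in either. Of the 20654 loci, 63 had a difference as low or lower, Myc included. The locus held 45 and 40 peaks in control tumors, against 32 and 21 in test tumors, a difference of -16 that was -10.5 without test tumor 2 and -4.5 with flanks of 100 kb. With flanks of 50 kb the peak counts overlapped. No share over all loci is given for the peak counts of this or the other loci, and both control lists were longer than both test lists. Locus coverage and peak count were both lowest in test tumor 2 and next lowest in test tumor 1.

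The lower coverage of the Myc locus was mostly away from the gene. No other protein-coding gene lies in this locus, but it contains the start and the first part of Pvt1, a long noncoding RNA gene at chr15:62037986-62378096 whose start is 52.6 kb downstream of the Myc start. Peaks within Pvt1 covered 30.1 and 28.2 kb in control tumors, and 18.7 and 13.2 kb in test tumors. The region over the Myc TSS, chr15:61982680-61989712, which spans exons, introns and untranslated sequence of Myc, was covered by 6.80 and 6.42 kb in control tumors and by 6.37 and 5.82 kb in test tumors. The groups did not overlap in either, and the test to control ratio was 0.548 within Pvt1 and 0.922 over the TSS. Upstream of Myc, where 12 intergenic regions were found, coverage was 3.57 and 1.85 kb in control tumors and 1.80 and 1.21 kb in test tumors, so that control tumor 2 and test tumor 1 were almost equal.

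**Figure D2:**
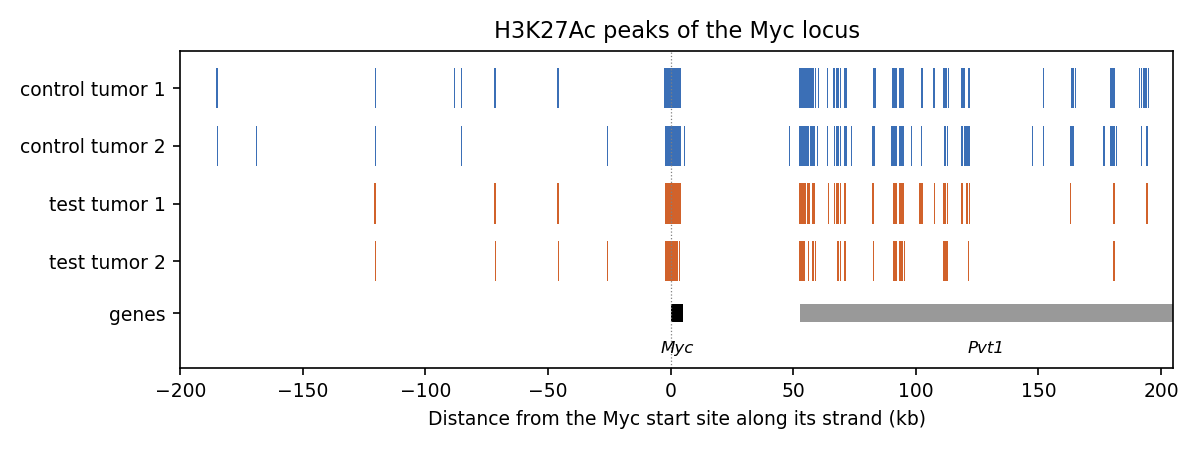
H3K27Ac peaks of 4 tumors across the Myc locus, by distance from the Myc start site in kb; each bar is a peak (drawn at least 0.3 kb wide), with control tumors in blue and test tumors in orange, and the lowest row shows Myc and Pvt1. A wide block at the Myc start is present in all 4 tumors, and peaks across Pvt1 cover 30.1, 28.2, 18.7 and 13.2 kb from the top row down.

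Joining overlapping peaks of the 4 tumors gave 51 union regions in the Myc locus. Of these, 13 were present in all 4 tumors, 8 were present in both control tumors and in no test tumor (control-only), and none was present in both test tumors alone. The control-only count was 3 with flanks of 100 kb, 0 with flanks of 50 kb and 4 with peaks of at least 1 kb or with joined peaks. Control-only regions made up 3.41% of all 91238 union regions of the genome, and test-only regions 1.47%. Of the 13 regions shared by all tumors, 9 were covered over more sequence in both control tumors and 1 in both test tumors. Among all 34804 regions shared by the 4 tumors, these shares were 13.3% and 19.1%. The widest region of the locus was chr15:62037678-62044804 over the start of Pvt1, with 6.89 and 6.45 kb covered in control tumors and 5.12 and 4.31 kb in test tumors. A further region at chr15:62164395-62166815, in a Pvt1 intron, was covered by 2.24 and 2.35 kb in control tumors and by 0.860 and 0.730 kb in test tumors, and was singled out after its values were seen.

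The widest control-only region of the Myc locus was chr15:62161775-62162673, in a Pvt1 intron 176 kb from the Myc start. It was covered by 0.265 and 0.899 kb in control tumors 1 and 2 and by no peak in either test tumor. Its central 300 bases, chr15:62162074-62162373 on the plus strand of GRCm38.p6, are shown as sequence called in control tumors alone, chosen as the widest such region, with capitals marking the letters of the TCF motif ATCAAAG on the reverse strand.
Myc control-only region: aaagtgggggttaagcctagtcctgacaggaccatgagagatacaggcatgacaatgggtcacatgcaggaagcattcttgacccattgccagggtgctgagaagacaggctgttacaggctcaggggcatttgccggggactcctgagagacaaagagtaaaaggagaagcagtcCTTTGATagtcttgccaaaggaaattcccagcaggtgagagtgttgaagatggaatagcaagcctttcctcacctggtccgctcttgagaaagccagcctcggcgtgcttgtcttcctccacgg
This motif was found in the central 300 bases of 3 of the 8 control-only regions of the Myc locus, of 4 of all 51 regions there, and of 4.18% of all union regions. It was the most frequent of the 9 motifs searched in these 8 regions. The GATA motif AGATAA was in 2 of them, against 12.6% of all union regions, the GC box GGGCGG in 1 and the others in none. None of the 51 central stretches held the E-box CACGTG, which 4.07% of all union regions held.

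Mycl and Mycn, the family members with narrower tissue patterns, had no promoter peak in any tumor. Mycl lies on the plus strand at chr4:122995652-123002485, and Mycn on the minus strand at chr12:12936093-12941914. Within 10 kb of the Mycn TSS no tumor had a peak, and at Mycl there was a peak of 0.175 kb in test tumor 2 and none elsewhere. Among all protein-coding genes, 52.0 to 54.1% had a promoter peak in each tumor. The Mycl locus was nevertheless covered by 5.49 and 5.04% in control tumors and by 5.34 and 3.87% in test tumors, and the groups overlapped. It holds 9 other protein-coding genes, and its widest region, chr4:122957848-122963771, lay over Mfsd2a, a lysolipid transporter gene, with 5.27, 4.61, 5.92 and 3.63 kb covered.

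The number of peaks in the Mycl locus did separate the groups, with 23 and 22 in control tumors and 18 and 16 in test tumors. The groups overlapped in this count with flanks of 100 or 50 kb and with peaks of at least 1 kb. No share over all loci is given for peak counts, and both control lists were longer than both test lists. There were 4 control-only regions of 25 and no test-only region, and 12 regions were shared by all tumors. The widest control-only region, chr4:123046260-123047098, contained coding sequence and intron of Trit1, a tRNA modification gene, and was covered by 0.839 and 0.389 kb in control tumors. Peaks away from the start of any protein-coding gene covered 10.7 and 8.16 kb in control tumors, against 7.95 and 5.47 kb in test tumors. Peaks at the starts of other genes in the locus overlapped between groups, at 11.7 and 12.4 kb in control tumors and 13.8 and 10.3 kb in test tumors.

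By the mean over all tumors, the Mycn locus had the lowest coverage of the 8. It was 0.576 and 0.353% in control tumors and 0.631 and 0.527% in test tumors. In test tumor 1 the Ccnd2 locus was lower than the Mycn locus. The Mycn locus held 3, 3, 3 and 5 peaks, all intergenic. The widest region, chr12:12809943-12811201, lay 131 kb downstream of Mycn and was covered by 0.768 and 0.533 kb in control tumors and by 1.18 and 0.914 kb in test tumors. This region was thus wider in both test tumors, in a locus whose total did not separate the groups.

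Among the D-type cyclins, Ccnd1 and Ccnd3 had wide promoter peaks in all tumors, and Ccnd2 had a peak within 1 kb of its 5′ end in control tumor 2 alone. Ccnd1, the cyclin best known in breast epithelium, lies on the minus strand at chr7:144929931-144939925. Its promoter peak was 6.47 and 6.76 kb wide in control tumors, and 5.92 and 6.80 kb in test tumors. It lay in the union region chr7:144936585-144943426. These widths lay above at least 97.0% of promoter peaks in the same tumor. The locus was covered by 7.29 and 7.38% in control tumors and by 5.18 and 8.07% in test tumors, and it held 22, 22, 20 and 24 peaks. The test tumors lay on either side of the control tumors in each of these measures.

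Most of the Ccnd1 locus coverage lay upstream of the gene. The widest region, chr7:145105283-145113647, was intergenic, 165 kb upstream, and was covered by 7.56 and 6.89 kb in control tumors and by 4.02 and 8.37 kb in test tumors. Test tumor 1 was low there and test tumor 2 high. Another intergenic region upstream of Ccnd1, at chr7:144993145-144995194 and named after its values were seen, was covered by 1.54 and 1.85 kb in control tumors, 1.93 kb in test tumor 2 and not at all in test tumor 1. The locus had no control-only region and 1 test-only region, chr7:145020074-145021056, which was intergenic 80.1 kb upstream and was covered by 0.283 and 0.931 kb in test tumors. Its central 300 bases, chr7:145020415-145020714 on the plus strand, are shown because the right part is a run of the repeated unit gaaa, and none of the 9 motifs searched was found in it.
Ccnd1 test-only region: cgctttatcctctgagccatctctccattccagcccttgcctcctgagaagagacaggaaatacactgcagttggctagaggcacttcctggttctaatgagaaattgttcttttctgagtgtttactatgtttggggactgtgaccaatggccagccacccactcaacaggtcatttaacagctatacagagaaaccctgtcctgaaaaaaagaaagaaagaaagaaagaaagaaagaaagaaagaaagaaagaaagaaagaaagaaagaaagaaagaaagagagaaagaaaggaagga

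Ccnd2, a cyclin known from blood and gonadal cells, lies on the minus strand at chr6:127125162-127152193. Its locus was covered by 1.07 and 3.60% in control tumors 1 and 2, and by 0.527 and 0.570% in test tumors 1 and 2. Both control tumors were above both test tumors, but control tumor 2 stood far above the other 3. The difference was -1.78 percentage points, and -0.52 without control tumor 2. The locus held 7 and 14 peaks in control tumors, and 5 and 4 in test tumors. Within 10 kb of the TSS, coverage was 3.44 and 29.8% in control tumors and 1.99 and 0% in test tumors, and the difference of -15.6 percentage points was -2.45 without control tumor 2.

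Within 1 kb of the Ccnd2 5′ end, control tumor 2 had peaks at chr6:127151467-127152351 and chr6:127152683-127154928, and the other 3 tumors had none. Control tumor 1 had a peak of 0.338 kb within 1 kb of another annotated Ccnd2 transcript start, and with a window of 2.5 kb around the 5′ end control tumor 1 and test tumor 1 also had a peak. A region at chr6:127148723-127150967 over an exon of Ccnd2, named after its values were seen, was covered by 0.689 and 2.25 kb in control tumors, 0.399 kb in test tumor 1 and not in test tumor 2. The widest region of the locus, chr6:127336465-127339640, was intergenic, 184 kb upstream, and was covered by 1.01 and 3.18 kb in control tumors, 0.552 kb in test tumor 1 and not in test tumor 2. Of 14 regions in the locus, 8 were present in a single tumor and 2 in all 4.

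**Figure D3:**
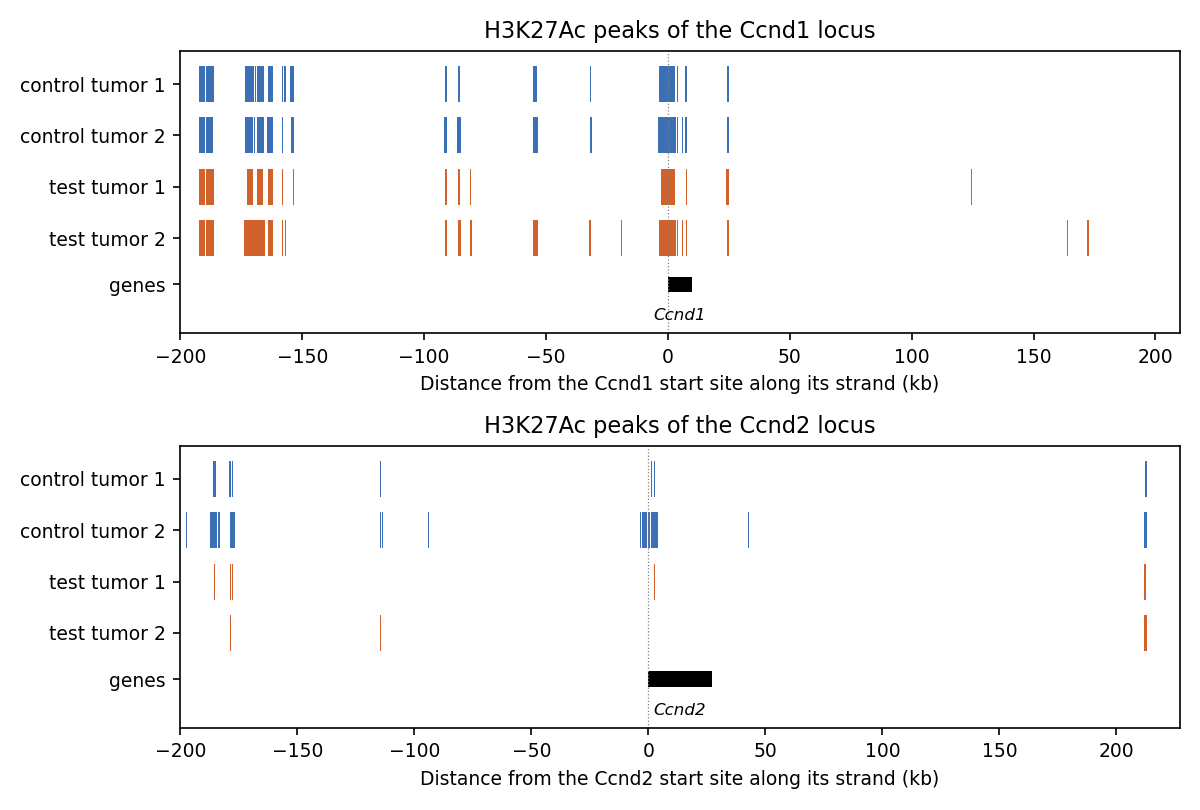
H3K27Ac peaks of 4 tumors across the Ccnd1 and Ccnd2 loci, by distance from each start site along the gene's strand in kb; each bar is a peak (drawn at least 0.3 kb wide), with control tumors in blue and test tumors in orange. The Ccnd1 start has a wide peak in all 4 tumors, and the Ccnd2 start has peaks in control tumor 2 alone.

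Ccnd3, the D-type cyclin prominent in lymphoid and muscle cells, lies on the plus strand at chr17:47505051-47599691. Its promoter peak was 8.23 and 5.53 kb wide in control tumors and 8.45 and 5.33 kb in test tumors. The narrower peaks, in control tumor 2 and test tumor 2, came from a split of the same region, chr17:47503966-47512413, which was covered by 8.23 and 7.38 kb in control tumors and by 8.45 and 7.74 kb in test tumors. The locus holds 16 other protein-coding genes and was covered by 9.75 and 10.0% in control tumors and by 11.5 and 7.95% in test tumors. Of 45 regions, 23 were shared by all tumors and 1 was control-only, at chr17:47754586-47754908 in an intron of Tfeb, a lysosomal transcription factor gene.

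Cdk4 and Cdk6, the catalytic partners of the D-type cyclins, had promoter peaks in all tumors and overlapping groups in locus coverage. Cdk4 lies on the plus strand at chr10:127063534-127067920, among 18 other protein-coding genes. Its promoter peak was narrow, 1.56 and 1.55 kb in control tumors and 1.60 and 1.60 kb in test tumors, in the region chr10:127063494-127065137. Test tumors were above control tumors, by a mean of 0.043 kb. Locus coverage was the highest of the 8 genes, at 10.5 and 11.0% in control tumors and 13.1 and 8.97% in test tumors. The widest region, chr10:127162174-127169817, lay over B4galnt1, a ganglioside synthesis gene, and was covered by 6.97, 6.75, 7.64 and 6.14 kb.

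**Figure D4:**
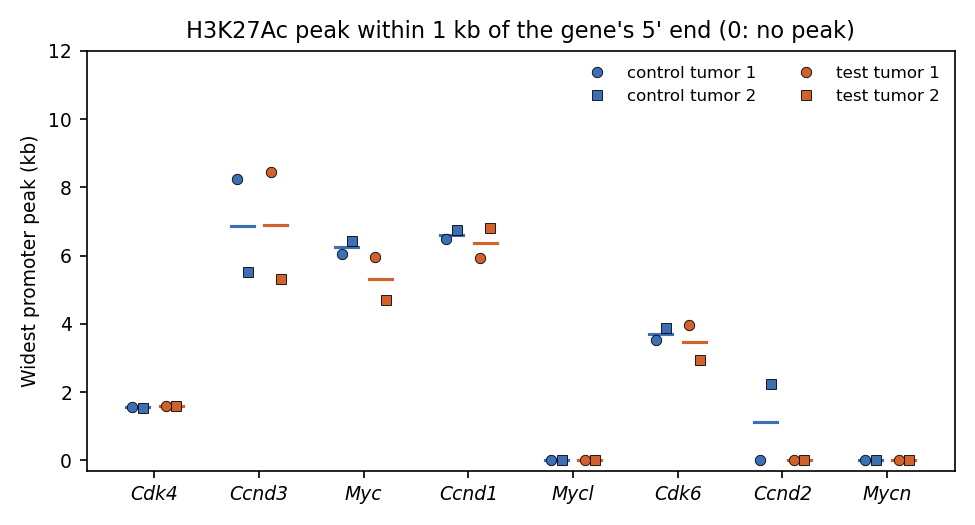
Width in kb of the widest H3K27Ac peak within 1 kb of each gene's 5′ end, by tumor, with 0 for no peak; points are tumors and bars are group means (n = 2). Mycl and Mycn sit at 0 in all tumors, Ccnd2 is above 0 in control tumor 2 alone, and Myc is wider in both control tumors (6.06 and 6.42 kb) than in both test tumors (5.95 and 4.71 kb). Where a region was split, the widest peak is a part of it. The whole region over the Myc TSS was covered by 6.80 and 6.42 kb in control tumors and 6.37 and 5.82 kb in test tumors.

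Cdk6 lies on the plus strand at chr5:3341485-3531008. Its promoter peak was 3.52 and 3.87 kb wide in control tumors, and 3.98 and 2.94 kb in test tumors. The region around it, chr5:3341099-3345176, was the widest of the locus and was covered by 3.52, 3.87, 3.98 and 3.44 kb. Locus coverage was within 3.58 to 3.77% in all 4 tumors, the narrowest spread for its level among the 8 genes. The Cdk6 locus had no control-only region and 1 test-only region, chr5:3438917-3439229, in an intron of Cdk6 97.4 kb from its start, which was covered by 0.199 and 0.291 kb in test tumors. The Cdk4 locus had 2 control-only regions, the wider at chr10:126957546-126958055 over Gm49335, and 1 test-only region, chr10:127103606-127104200, in an intron of Os9, a gene of endoplasmic reticulum protein quality control. The test-only region of the Cdk4 locus was covered by 0.595 and 0.232 kb in test tumors.

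The promoter sequences of Cdk4, Cdk6 and Ccnd3 are shown because their peaks were found in all 4 tumors and their sequences were matched. They are the 250 bases before the RefSeq start on the GRCm38.p6 build, at chr10:127063285-127063534, chr5:3343643-3343892 and chr17:47504801-47505050, all on the plus strand. Capitals mark the motifs found, searched on both strands. These were the E-box CACGTG, the ETS motif CCGGAA, the AP-1 motif TGANTCA, the STAT motif TTCNNNGAA, the GATA motif AGATAA, the cyclic AMP response element TGACGTCA, the GC box GGGCGG, the TCF motif ATCAAAG and the E2F motif TTTCGCGC.
Cdk4 promoter: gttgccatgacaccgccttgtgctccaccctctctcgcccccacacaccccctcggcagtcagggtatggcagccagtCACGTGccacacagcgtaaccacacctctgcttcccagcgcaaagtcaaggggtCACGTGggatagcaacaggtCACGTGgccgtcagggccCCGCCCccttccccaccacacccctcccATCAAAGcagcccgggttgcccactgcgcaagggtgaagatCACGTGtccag
Cdk6 promoter: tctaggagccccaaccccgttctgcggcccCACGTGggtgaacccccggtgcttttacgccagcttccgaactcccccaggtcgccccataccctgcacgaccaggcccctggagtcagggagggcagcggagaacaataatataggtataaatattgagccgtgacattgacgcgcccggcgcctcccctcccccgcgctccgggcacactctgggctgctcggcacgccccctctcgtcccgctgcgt
Ccnd3 promoter: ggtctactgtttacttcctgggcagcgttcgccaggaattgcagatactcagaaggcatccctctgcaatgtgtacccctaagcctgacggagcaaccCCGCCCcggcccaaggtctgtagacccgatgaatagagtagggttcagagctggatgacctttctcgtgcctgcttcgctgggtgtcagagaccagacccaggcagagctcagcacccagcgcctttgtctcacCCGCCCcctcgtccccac
The Cdk4 promoter held 4 E-boxes, 1 GC box and 1 TCF motif, the Cdk6 promoter 1 E-box, and the printed Ccnd3 promoter 2 GC boxes. Another RefSeq promoter of Ccnd3, at chr17:47593217-47593466, held 1 ETS motif and 1 GC box. Of 32851 RefSeq promoters of the same length, 6.02% held an E-box, and 7 (0.0213%) held at least 4. GC boxes were in 32.7% of them and the TCF motif in 3.21%. The widest Cdk4 peak began between chr10 positions 127063494 and 127063541 in the 4 tumors, so most of the printed Cdk4 sequence lay before its edge, between it and a small peak at chr10:127062880-127063110 found in control tumor 2 and test tumor 2. The printed Cdk6 and Ccnd3 sequences lay within the promoter peak in every tumor.

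In the same table, the promoters of Mycl and Mycn held no E-box. Mycl had 1 GC box and Mycn 2 GC boxes and 1 E2F motif, which was in 0.256% of all promoters. Their CpG counts over 250 bases were 14 and 11, against 13 for Cdk4, 22 for Cdk6 and 11 and 19 for the Ccnd3 promoters, and 64.4 to 85.2% of promoters held fewer. The promoters without a peak in any tumor thus had CpG counts within the range of those with a peak. Promoter sequences of 5 of the 8 members were matched. Those of Myc, Ccnd1 and Ccnd2 were not, although Myc and Ccnd1 had a promoter peak in every tumor.

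The central 300 bases of the test-only regions in the Cdk6 and Cdk4 loci, chr5:3438923-3439222 and chr10:127103753-127104052 on the plus strand, complete the sequences called in test tumors alone. Capitals mark, in the Cdk6 region, an ETS motif that overlaps a STAT motif, and, in the Cdk4 region, a GATA motif.
Cdk6 test-only region: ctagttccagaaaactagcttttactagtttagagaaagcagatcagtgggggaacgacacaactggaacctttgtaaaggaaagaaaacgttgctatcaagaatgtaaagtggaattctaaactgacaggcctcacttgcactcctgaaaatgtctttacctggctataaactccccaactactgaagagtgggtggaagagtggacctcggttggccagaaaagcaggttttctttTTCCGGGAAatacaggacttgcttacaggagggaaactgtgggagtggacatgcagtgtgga
Cdk4 test-only region: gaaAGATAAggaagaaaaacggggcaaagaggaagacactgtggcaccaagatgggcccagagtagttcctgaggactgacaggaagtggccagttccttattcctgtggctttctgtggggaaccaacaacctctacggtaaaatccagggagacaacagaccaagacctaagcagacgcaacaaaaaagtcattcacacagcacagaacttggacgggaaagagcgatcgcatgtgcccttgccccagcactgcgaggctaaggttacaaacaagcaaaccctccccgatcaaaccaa
In the central 300 bases of all union regions, 6.35% held the ETS motif, 9.98% the STAT motif and 12.6% the GATA motif.

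By mean coverage over the 4 tumors, the order of the loci was Cdk4 at 10.9%, Ccnd3 at 9.80%, Myc at 7.70%, Ccnd1 at 6.98%, Mycl at 4.94%, Cdk6 at 3.65%, Ccnd2 at 1.44% and Mycn at 0.522%. Of neighbours in this order, the ranges of the 4 tumors were apart for Mycl and Cdk6 alone. Over the 8 loci, 243 union regions were found, and 102 were present in all 4 tumors. Control-only regions numbered 15 (6.17%), of which 8 were in the Myc locus and 4 in the Mycl locus, against 3.41% of all union regions. Test-only regions numbered 3 (1.23%), a share near the 1.47% of all union regions. The control-only count was 4 with flanks of 100 kb, 1 with flanks of 50 kb, 5 with peaks of at least 1 kb and 8 with joined peaks. Peaks away from any protein-coding start covered 131 and 134 kb in control tumors and 120 and 94.2 kb in test tumors. Peaks at the starts of other genes covered 54.2 and 56.4 kb in control tumors and 60.7 and 50.5 kb in test tumors. Peaks at the members' own starts covered 26.6 and 29.3 kb in control tumors and 26.3 and 25.6 kb in test tumors. The groups were apart away from the starts and at the members' own starts, and overlapped at the starts of other genes. At the members' own starts, control tumor 1 and test tumor 1 lay close together. Control tumor 2 included 3.13 kb at the Ccnd2 start, where the other tumors had none. The same split over all loci is not given. Without the Myc locus, peaks away from the starts covered 97.5 and 103 kb in control tumors and 99.0 and 79.8 kb in test tumors, and the groups overlapped there and at the members' own starts.

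Within 10 kb of the TSS, Myc was covered by 34.0 and 33.9% in control tumors and by 31.9 and 29.1% in test tumors. Myc and Ccnd2 were higher in both control tumors, as were 11.6% of 14792 covered genes, and no member was higher in both test tumors, as were 20.9%. The Myc difference of -3.51 percentage points was -2.12 without test tumor 2, and the Ccnd2 groups overlapped with peaks of at least 1 kb. Of the other genes of the pathway, 66 of 68 were covered, 10 were higher in both control tumors, 7 were higher in both test tumors and 49 overlapped. Their median difference was 0.025 percentage points, against 0.277 over all covered genes.

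The CDK inhibitors hold cyclin-CDK complexes inactive. All 6 covered of 7 were lower on average in test tumors, against 42.7% of all covered genes. Of these 6, 3 were higher in both control tumors, as were 11.6% of all covered genes. The other 3, Cdkn2a, Cdkn2b and Cdkn2c, overlapped between groups, with differences of -1.14, -1.26 and -0.91 percentage points. Cdkn1a, the p21 gene, was covered by 41.7 and 42.9% in control tumors and by 38.8 and 33.4% in test tumors. By Western blot, the paper reports more p21 protein in its test tumors than in its control tumors. Its blot groups also included mice without the Rag1 knockout, and protein is a different measure from peak coverage. Cdkn1b, the p27 gene, was covered by 71.4 and 71.5% in control tumors and by 69.3 and 68.4% in test tumors. The difference at Cdkn1b was small against its level, and Cdkn2d, the third, ranged from 15.5 to 19.7%. E2f2, an activating E2F, was covered by 23.1 and 39.3% in control tumors and by 18.6 and 19.6% in test tumors. Rrm2, a subunit of ribonucleotide reductase, and Cdk7, the CDK-activating kinase, had means of 19.1 and 11.4% in control tumors and 14.8 and 8.04% in test tumors. The differences changed most at E2f2, from -12.1 percentage points to -3.96 without control tumor 2 and -20.2 without control tumor 1. At Rrm2 the difference was -4.31, and -2.19 without control tumor 2, and at Cdkn1a it was -6.20, and -3.49 without test tumor 2. The groups overlapped at Rrm2 with peaks of at least 1 kb and at Cdkn1b within 2.5 kb of the TSS.

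Fbxw7, the ubiquitin ligase subunit that targets MYC and cyclin E for degradation, was covered by 19.1 and 19.8% in control tumors and by 22.0 and 31.9% in test tumors. Mcm2, a subunit of the replicative helicase, was covered by 26.8 and 24.7% in control tumors and by 30.3 and 34.4% in test tumors. Cks1b, an accessory protein of CDKs, E2f5, a repressive E2F, and Npm1, a nucleolar protein, had differences of 2.52, 2.22 and 1.70 percentage points. The Fbxw7 difference of 7.48 was 2.51 without test tumor 2 and 12.4 without test tumor 1. The Cks1b difference was 1.63 without control tumor 2, 1.13 without test tumor 1 and 3.92 without test tumor 2, and without control tumor 1 the E2f5 and Npm1 differences were 1.25 and 1.10. Mcm2 overlapped between groups within 2.5 and 50 kb of the TSS, and Cks1b within 50 kb. Among the MYC partners and antagonists, including Max, 9 of 9 overlapped between groups. Among MYC targets, 1 of 8 was higher in each direction.

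**Figure D5:**
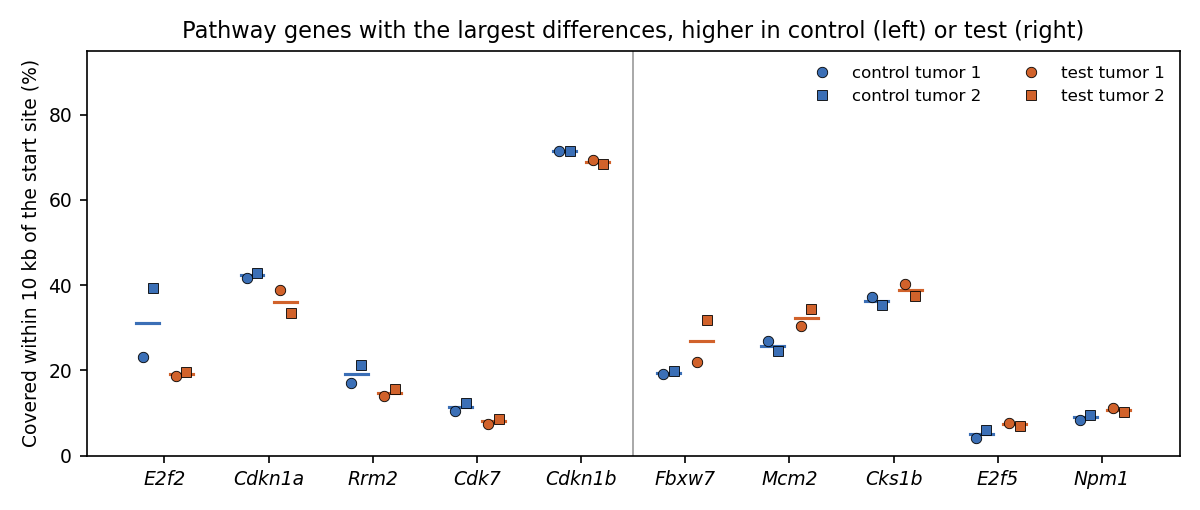
Share of the 20 kb around the start site covered by H3K27Ac peaks, in percent, for the 5 pathway genes per direction with the largest differences among those whose groups do not overlap; points are tumors and bars are group means (n = 2). The differences range from -12.1 percentage points at E2f2 to 7.48 at Fbxw7.

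The pathway gene with the profile most like each member was found by the Euclidean distance between coverages within 10 kb of the TSS over 4 tumors, among 68 genes. Max, the partner of MYC, was nearest to Myc at 9.37 percentage points, with 39.4, 33.3, 39.3 and 30.6% in the 4 tumors. E2f3 was nearest to Cdk4 at 2.57 points, Pcna to Cdk6 at 3.38, Ldha to Ccnd3 at 7.0, Cdkn1a to Ccnd1 at 11.7 and Zbtb17 to Ccnd2 at 18.7. Mycn and Mycl were nearest to Cdkn1c and, equally, to Skp2, which both had no peak in this window in any tumor. These distances follow the level of coverage more than its change between groups.

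Endothelial, fibroblast and T cell markers had lower summed coverage in both test tumors than in both control tumors, as Myc and Ccnd2 did. Over all covered genes, 42.7% were lower on average in test tumors. The summed coverage of 10 endothelial markers was 35.2 and 38.1 percentage points in control tumors and 13.4 and 8.15 in test tumors, lower on average in test tumors for all 7 covered, with Tie1, Erg and Vwf at 0. The 10 fibroblast markers summed to 52.5 and 32.4 in control tumors and 31.4 and 9.09 in test tumors, lower for all 7 covered, with Lum, Thy1 and Fap at 0. For myeloid cells they were 191 and 168 in control tumors and 176 and 127 in test tumors, lower for 8 of 9 covered, with Adgre1 at 0, and the groups overlapped. For T cells they were 18.4 and 17.8 in control tumors and 13.7 and 5.19 in test tumors, lower on average for 6 of 8 covered. Some of these 6 rested on a small peak in control tumor 2 alone. Of the 8, 3 were higher in both control tumors and 1 in both test tumors, where 11.6 and 20.9% of all covered genes were. The latter was Cd3e, a gene of the T cell receptor complex, at 0 and 0.790% in control tumors and 1.27 and 1.01% in test tumors. Ptprc, expressed by leukocytes of all kinds, had the largest levels, at 8.80 and 7.61% in control tumors and 6.20 and 3.30% in test tumors. The 8 myoepithelial markers, with Trp63 at 0, gave 45.0, 17.0, 47.9 and 14 and overlapped, with 5 of 7 covered lower in test tumors. The 6 adipocyte markers, with Adipoq, Fabp4 and Lep at 0, gave 36.2, 39.1, 47.9 and 32.4 and overlapped, with all 3 covered higher in test tumors. The part of these cell types, and of the shorter list of test tumor 2, in the Myc and Ccnd2 values was not tested.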

How the data were processed

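H3K27Ac libraries of 4 tumors (2 control, 2 test) were used, and input libraries were not used here. Per the labels and methods, reads were aligned to mm10 with BWA, peaks were called per tumor against input with MACS2 at a q-value threshold of 0.01, and the deposited lists hold cleaned, merged intervals with no height or score. Intervals of a list were at least 201 bp apart. Read depth is unknown, so no interval for counting error is given. Replicate numbers only name tumors.

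Covered bases and peaks (any overlap of 1 bp) were computed in Python 3.11.15 (numpy 2.4.6, pandas 2.3.3) for each gene body plus 200 kb, and for 10 kb either side of the 5′ end of GENCODE M21 genes. A promoter peak lay within 1 kb of that end. Peaks of all tumors were joined into union regions, and a tumor held a region with 1 bp. A group was called higher when both its tumors exceeded both of the other group. The interval code was tested on simulated data. Chromosome lengths of GRCm38.p6 held all intervals.

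The members, gene lists, markers and motifs were chosen with earlier results of these data known. Values of some T cell markers are not reported here. All 8 members are named. In each locus the region over the TSS and the widest region of all, in control tumors alone and in test tumors alone are named. The text also names the 5 pathway genes per direction with the largest difference, and the most alike gene per member, ties included. A few regions outside this rule are named as such. Alternatives were flanks of 100 and 50 kb, other TSS windows, peaks of at least 1 kb, equal numbers of peaks, joining within 1 kb, scaling by covered genome, and leaving out each tumor.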

Additional observations from a re-analysis of the deposited data

How the results depend on the processing

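The Myc and Ccnd2 loci were lower in test tumors in all 6 alternatives that gave locus coverage with 4 tumors, and both control tumors were above both test tumors in each; the Myc difference ranged from -4.40 to -0.98 percentage points and was smallest with 50 kb flanks. The Myc peak count differed by -16, but by -4.5 with 100 kb flanks, -0.5 with 50 kb flanks, -3 with peaks of at least 1 kb and -9 with joined peaks. Peak counts of Myc overlapped with 50 kb flanks, and those of Mycl with 50 and 100 kb flanks and with peaks of at least 1 kb. Within 10 kb of the TSS, peaks of at least 1 kb left the groups overlapping at Ccnd2. Control-only regions of the 8 loci numbered 15, but 4 with 100 kb flanks, 1 with 50 kb flanks, 5 with peaks of at least 1 kb and 8 with peaks joined within 1 kb. Test-only regions numbered 3, but 1 with peaks of at least 1 kb and 5 with equal numbers of peaks. Members higher in both test tumors numbered 0, but 1 with 50 kb flanks, 2 with joined peaks and 1 with coverage scaled to the covered genome. The covered length over the 8 loci differed by -27.5 kb, by -4.99 kb with 50 kb flanks, and the groups then overlapped, as they did with 100 kb flanks and with peaks of at least 1 kb. Pathway genes higher in both test tumors numbered 7, and 12 within 50 kb of the TSS, where the Cks1b difference reversed to -0.21 points. Groups also overlapped at Mcm2 within 2.5 and 50 kb, at Cdkn1b within 2.5 kb and at Rrm2 with peaks of at least 1 kb.

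Leaving out a tumor makes groups easier to separate by construction. It gave 22 to 46 control-only and 4 to 25 test-only regions, 2 to 6 members higher in control tumors, 0 to 4 higher in test tumors, and 15 to 29 and 13 to 25 pathway genes higher in control and test tumors. No paired analysis was possible because the labels carry no replicate numbers that tie tumors of different groups together. Peak lists without heights limit what could be compared.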
